A study of Rattus norvegicus with 36 samples.

Results

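MicroRNA (miRNA) levels in the nucleus accumbens (NAc) were compared between 4 rats that had been abstinent from cocaine for 4 weeks and 4 cocaine-naive rats. The comparison used 8 of the 36 small RNA libraries of the series, chosen by their region and group labels, and covered all 723 mature miRNAs of the count table, of which 457 had enough reads to be tested. All animals were outbred male heterogeneous stock rats. The abstinence rats had self-administered intravenous cocaine under short and then long daily access before forced abstinence. The naive rats never received the drug and were matched for age at the start of self-administration. The abstinence rats also had catheter surgery and tests of motivation and foot shock, which the paper does not describe for naive rats. The part of these in the changes was not tested and cannot be told apart from that of cocaine. A further group of 4 rats, killed at acute withdrawal after the same cocaine access, entered the model and is set beside the result at the end. The labels put that time point at 16 h after cocaine and the study's methods at a somewhat later hour. Each library came from 1 rat and from a frozen dissection of the NAc as a whole, and the infralimbic (IL) and prelimbic (PL) cortex of the same rats were sequenced too. In such bulk tissue, fewer cells of a type and less RNA per cell cannot be told apart. Total counts of the 8 libraries ranged from 9509360 to 12757547 and RNA integrity numbers (RIN) from 8.1 to 9.2. The NAc libraries were separate from the cortical ones on the first principal component of all 36 libraries (2.86 to 27.0 in the NAc, up to 1.78 in the PL and up to −3.99 in the IL). Abstinence rat 2 stood apart from the other NAc libraries, at 19.8 on their own first component, which held 53.8% of the variance, against −13.1 for naive rat 4 at the other end. Values without each of them are given beside the calls, and values without one or the other beside the group medians that moved most. Rats are numbered in the order of the sample list, so equal numbers in different groups are different animals.

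The NAc is a ventral striatal region, made up mostly of GABAergic medium spiny neurons, that receives glutamatergic input from prefrontal cortex and dopaminergic input from the midbrain and is central to cocaine reward and relapse. A mature miRNA guides Argonaute proteins to messenger RNAs mainly through its seed (bases 2 to 8 from its 5′ end), and represses the targets it pairs with. Each hairpin precursor can yield a 5p and a 3p arm with different seeds, so the arms of a hairpin are made together but repress different targets.

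The mature sequences below are those of the miRNAs that passed the thresholds, shown because their seeds and base composition bear on the results that follow. They are taken from RefSeq (GRCr8), 5′ to 3′, with the seed in capitals. rno-miR-30b-5p, which also passed, is named only. The higher miRNAs had different seeds, each shared with no other of the 411 tested miRNAs that had a sequence, and a GC content of 63.6% to 68.2% against a mean of 49.9% over those 411. The other 46 tested miRNAs had no sequence to compare.
rno-miR-935: cCAGUUACcgcuuccgcuaccgc
rno-miR-770-5p: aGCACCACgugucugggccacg
rno-miR-25-5p: aGGCGGAGacacgggcaauugc
rno-miR-3068-3p: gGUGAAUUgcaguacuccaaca

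A miRNA passed the thresholds when its fold change reached 1.5 and its unadjusted p was under 0.05 in an edgeR quasi-likelihood model of all 36 libraries that held RIN as a covariate, and is referred to as a call. 3 miRNAs were higher after abstinence (0.656% of the 457 tested) and 2 were lower (0.438%), which together made 1.09%. None passed a Benjamini-Hochberg adjusted p under 0.05 by edgeR (lowest adjusted p = 0.887), while 13 miRNAs (2.84%) had an unadjusted p under 0.05. Of these 13, 9 were higher and 4 lower, and 236 of the 457 tested miRNAs had a log2FC above 0. The balance was the opposite for the fold change alone, which reached 1.5 in 42 miRNAs, 34 of them lower and 8 higher. The higher miRNAs lie in genes of different kinds. rno-miR-935 lies in Cacng8, the gene of an AMPA receptor auxiliary subunit. rno-miR-770-5p lies in the imprinted noncoding gene Meg3, and rno-miR-25-5p in Mcm7, the gene of a DNA replication helicase subunit. On the lower side, the gene of rno-miR-3068-3p overlaps Alkbh1, and rno-miR-30b-5p belongs to the abundant miR-30 family. The groups overlapped for all 5.

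Expression is given as log2 CPM, read counts scaled to the size of each library with TMM factors. rno-miR-935 was at 5.92, 6.42, 5.86 and 5.42 in abstinence rats 1 to 4 and at 5.54, 5.27, 5.12 and 4.996 in naive rats 1 to 4. Abstinence rats 1 to 3 lay above every naive rat, and abstinence rat 4 lay below naive rat 1. Its log2FC was 0.70 (standard error 0.23, adjusted p = 0.887 by edgeR), with an exact permutation p of 0.0571 on the 8 values, and it had the lowest unadjusted p of the comparison by edgeR.

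rno-miR-770-5p was at 6.59, 7.67, 6.40 and 6.14 in abstinence rats and at 6.49, 6.15, 6.01 and 5.46 in naive rats. Abstinence rat 2 was more than 1 log2 unit above the next rat, and the remaining abstinence rats lay within or just above the naive range (log2FC = 0.67, standard error 0.32, adjusted p = 0.887 by edgeR, exact permutation p = 0.143). Its other arm, rno-miR-770-3p, was the more abundant and did not pass (log2FC = 0.31, standard error 0.25). Both arms were highest in abstinence rat 2, rno-miR-770-3p at 10.73 against 9.44 to 10.17 in the other 7 rats.

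rno-miR-25-5p is the minor arm of its hairpin, with 19 to 111 reads per library. It was at 2.27, 3.13, 1.44 and 1.20 in abstinence rats and at 1.96, 1.48, 1.09 and 0.78 in naive rats. Abstinence rats 1 and 2 lay above the naive range and rats 3 and 4 within it (log2FC = 0.72, standard error 0.34, adjusted p = 0.887 by edgeR, exact permutation p = 0.229). The major arm, rno-miR-25-3p, was on the other side of naive: 8.92, 8.96, 9.03 and 9.03 in abstinence rats and 9.24, 9.06, 9.39 and 9.28 in naive rats. The groups did not overlap for the major arm, but its change was small against the spread of the model (log2FC = −0.26, standard error 0.24, adjusted p = 0.887 by edgeR). The arms differ in GC content, 63.6% for rno-miR-25-5p and 50% for rno-miR-25-3p, and rno-miR-25-3p carries the miR-92 seed.
rno-miR-25-3p: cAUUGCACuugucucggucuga

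rno-miR-3068-3p had the largest change of the 5. It was at 3.62, 1.90, 4.29 and 3.80 in abstinence rats and at 4.67, 4.74, 3.89 and 5.11 in naive rats. Abstinence rats 1, 2 and 4 lay below every naive rat, and abstinence rat 3 lay above naive rat 3 (log2FC = −0.92, standard error 0.36, adjusted p = 0.887 by edgeR, exact permutation p = 0.0571). The other arm, rno-miR-3068-5p, was at 4.23, 2.93, 5.23 and 5.23 in abstinence rats and at 4.89, 5.41, 4.81 and 5.95 in naive rats. It did not pass (log2FC = −0.65, standard error 0.38), and its abstinence rats 3 and 4 lay within the naive range. The arms have unlike seeds and each was lowest in abstinence rat 2.
rno-miR-3068-5p: uUGGAGUUcaugcaaguucuaacca

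rno-miR-30b-5p was at 4.56, 3.10, 4.45 and 4.03 in abstinence rats and at 5.28, 5.39, 4.21 and 4.87 in naive rats. Naive rat 3 lay below abstinence rats 1 and 3, and the remaining naive rats lay above all abstinence rats (log2FC = −0.76, standard error 0.30, adjusted p = 0.887 by edgeR, exact permutation p = 0.0857). Its other arm, rno-miR-30b-3p, had the same mean in each group to within its spread, 5.60 ± 0.21 in abstinence and 5.62 ± 0.28 in naive rats (SD, n = 4 each). Of the 13 miRNAs of the miR-30 and miR-384 list that were tested, 1 was lower and none was higher, 6 had a log2FC above 0, and the median log2FC was −0.04. For the most abundant member, rno-miR-30d-5p, log2FC was −0.19 (standard error 0.18). The next, rno-miR-30c-5p and rno-miR-30a-5p, were at −0.20 and 0.05.

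**Figure D1:**
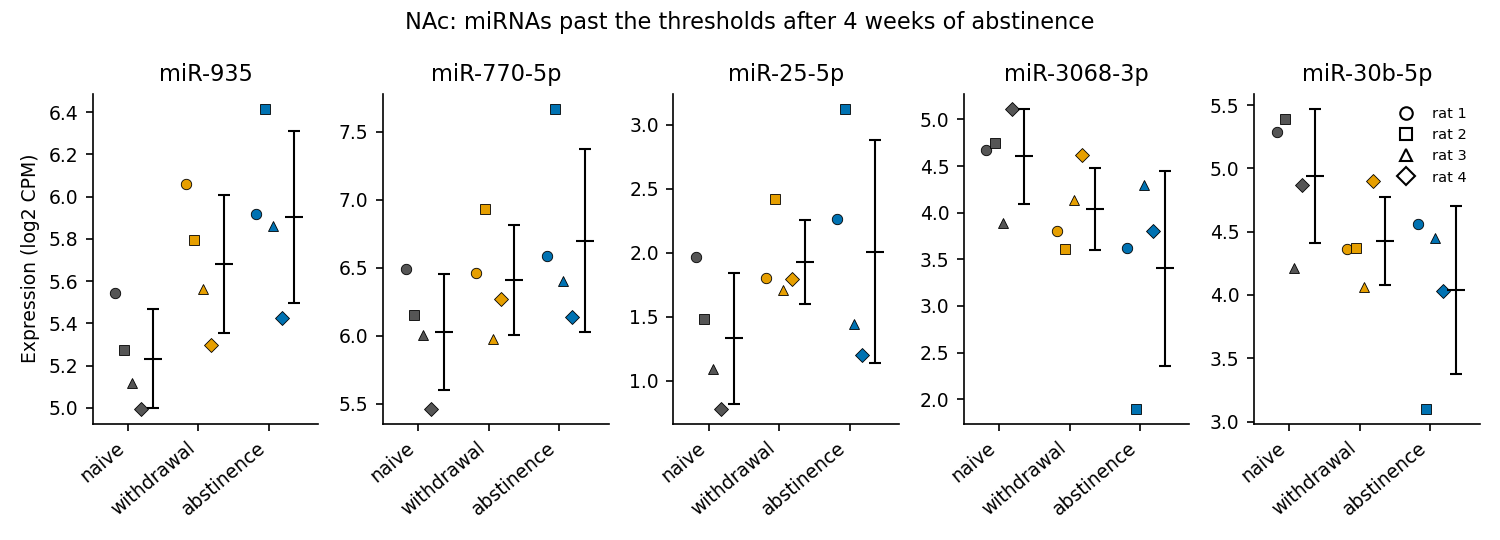
Expression (log2 CPM, vertical axis, a separate scale for each miRNA) of the 5 miRNAs past the thresholds in the NAc of naive, acute withdrawal and 4-week abstinence rats; each symbol is 1 rat, equal symbols in different groups are different animals, with the mean ± SD of each group of 4 drawn beside it. Abstinence rat 2 is the highest abstinence rat for miR-935, miR-770-5p and miR-25-5p and the lowest for miR-3068-3p (1.90) and miR-30b-5p (3.10).

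Each of the 5 calls ended when abstinence rat 2 was left out, and no other miRNA passed the thresholds without it. 3 miRNAs then had an unadjusted p under 0.05 by edgeR, and none an adjusted p under 0.05. Without that rat log2FC was 0.50 for rno-miR-935, 0.31 each for rno-miR-770-5p and rno-miR-25-5p, −0.68 for rno-miR-3068-3p and −0.61 for rno-miR-30b-5p, each in the same direction as with it. Without naive rat 4, at the other end of the first component, log2FC was 0.67 for rno-miR-935, 0.57 for rno-miR-770-5p, 0.63 for rno-miR-25-5p, −0.73 for rno-miR-3068-3p and −0.77 for rno-miR-30b-5p, and the calls of rno-miR-935 and rno-miR-30b-5p remained. rno-miR-935 and rno-miR-30b-5p kept their calls in 7 of the 8 fits that left out a NAc library, rno-miR-3068-3p in 5, and rno-miR-25-5p and rno-miR-770-5p in 4. Leaving out abstinence rat 4 had the opposite effect on the count: 30 miRNAs passed, 5 higher and 25 lower, with all 5 of the original calls among them. In that fit the lower miRNAs had a mean GC content of 40.2% and the higher ones of 64.0%.

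**Figure D2:**
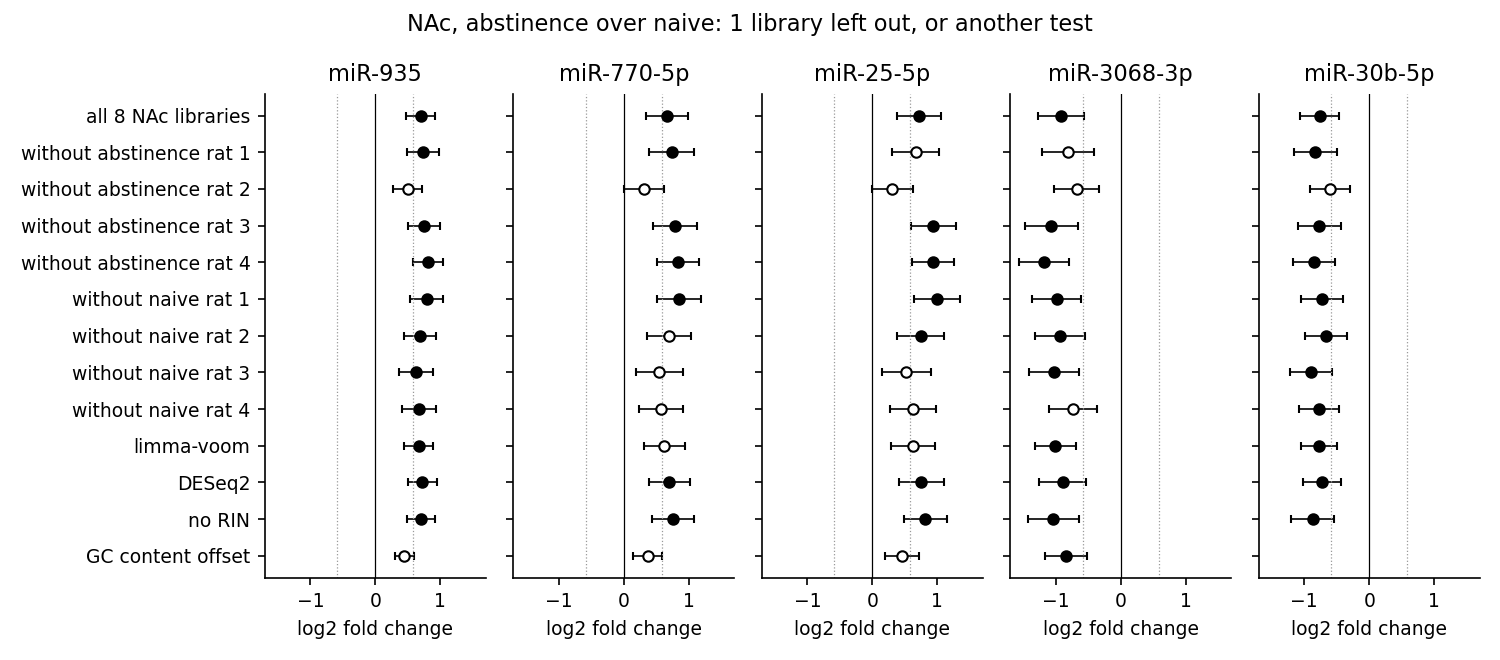
The log2 fold change of abstinence over naive (horizontal axis, bars ± standard error) of the 5 miRNAs with all 8 NAc libraries, with 1 library left out, and under other tests; filled points pass the thresholds, open points do not, and dotted lines mark a fold change of 1.5. No point crosses 0, and all 5 are open without abstinence rat 2; miR-30b-5p has no point for the GC content offset.

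The 8 other miRNAs with an unadjusted p under 0.05 were under the fold threshold, 6 above naive and 2 below. Separate groups, in which all 4 abstinence rats lay on the same side of all 4 naive rats, were found for 8 of the 457 miRNAs (1.75%), 5 higher and 3 lower, and none of these 8 reached a fold change of 1.5. Such separation fixes the exact two-sided permutation p at 0.0286, the smallest that 4 rats against 4 allow, so that p adds nothing to the choice. With random group labels a miRNA would separate with that same probability, which is above the share of 1.75% seen. The sequences of the 4 that also had an unadjusted p under 0.05 by edgeR are shown for comparison with those above.
rno-miR-125a-5p: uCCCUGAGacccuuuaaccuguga
rno-miR-346: uGUCUGCCugagugccugccucu
rno-miR-210-3p: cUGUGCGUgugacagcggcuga
rno-miR-409a-5p: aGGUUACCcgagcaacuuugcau

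rno-miR-125a-5p, the mammalian counterpart of the developmental regulator lin-4, was among the most abundant miRNAs of the NAc, with 4.11% of all counts in naive rats. It was at 15.64, 16.02, 15.30 and 15.26 in abstinence rats and at 15.26, 15.21, 14.93 and 14.94 in naive rats, so that the lowest abstinence rat was barely above the highest naive rat (log2FC = 0.50, standard error 0.18, adjusted p = 0.887 by edgeR). Its seed is shared by rno-miR-125b-5p and rno-miR-351-5p, which had log2FC of 0.24 (standard error 0.15) and 0.17 (standard error 0.18) and did not pass. Its neighbors in the same cluster, rno-miR-99b-5p and rno-let-7e-5p, had log2FC of 0.16 and 0.34. Without abstinence rat 2 the log2FC of rno-miR-125a-5p was 0.32.

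rno-miR-346, whose gene lies within the glutamate receptor gene Grid1, was at 7.14, 7.67, 6.96 and 6.94 in abstinence rats and at 6.71, 6.91, 6.66 and 6.66 in naive rats. All abstinence rats were above all naive rats, with a log2FC of 0.42 (standard error 0.17, adjusted p = 0.887 by edgeR) that was 0.27 without abstinence rat 2. rno-miR-210-3p, induced by hypoxia in many cell types, was at 4.69, 5.07, 4.81 and 4.50 in abstinence rats and at 4.21, 4.21, 4.37 and 4.31 in naive rats (log2FC = 0.46, standard error 0.19). With any 1 library left out its log2FC stayed between 0.39 and 0.54, against 0.31 to 0.85 for rno-miR-770-5p. rno-miR-210-3p was picked by separate groups and a low p in these same libraries, and such a choice favors a narrow range.

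rno-miR-409a-5p, of the imprinted Dlk1-Dio3 cluster, had a lower level in every abstinence rat than in every naive rat. It was at 7.86, 7.37, 7.70 and 7.35 in abstinence rats and at 8.22, 8.12, 7.999 and 8.06 in naive rats (log2FC = −0.46, standard error 0.19, adjusted p = 0.887 by edgeR), and its log2FC was −0.50 to −0.41 with any 1 library left out. That range too is favored by the choice of a miRNA with separate groups. The other miRNAs with separate groups were rno-miR-344b-5p (log2FC = 0.39), rno-miR-151-5p (0.22), rno-miR-25-3p (−0.26) and rno-miR-329-3p (−0.21). The remaining miRNAs with an unadjusted p under 0.05 had overlapping groups. They were rno-miR-668 of the Dlk1-Dio3 cluster (log2FC = 0.50), rno-miR-490-3p from the muscarinic receptor gene Chrm2 (0.45), rno-let-7a-5p (0.29) and rno-miR-300-3p (−0.35).

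The largest lower changes among miRNAs with a mean of at least 5 log2 CPM were not those with the lowest p. rno-miR-872-5p led with a log2FC of −0.71 (standard error 0.51, adjusted p = 0.887 by edgeR). It was at 5.64, 3.94, 6.40 and 6.88 in abstinence rats and at 6.36, 6.60, 6.37 and 7.63 in naive rats, so that abstinence rat 2 was far below and naive rat 4 above the overlapping rest. rno-miR-192-5p and rno-miR-411-5p, the latter of the Dlk1-Dio3 cluster, had log2FC of −0.60 each (standard errors 0.48 and 0.40), again with abstinence rat 2 lowest and naive rat 4 highest. Without naive rat 4 the log2FC of these 3 miRNAs were −0.31, −0.19 and −0.20. On the higher side, rno-miR-298-5p was at 0.46 (standard error 0.31) and, without abstinence rat 2, at 0.13.

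The change after abstinence varied with the base composition of the miRNAs. Over the 411 tested miRNAs with a sequence, log2FC and GC content had a Spearman rho of 0.55 (Pearson r = 0.54), and over the 276 with a mean of at least 3 log2 CPM a rho of 0.58. These are descriptions across miRNAs of the same 8 libraries, not across independent replicates. Among 4 bins of miRNAs by GC content, the median log2FC was higher in each bin of higher GC content (−0.28, −0.09, 0.06 and 0.18). In the lowest, 23.8% to 42.9%, 27 of 107 miRNAs had a log2FC above 0. In the highest, 57.1% to 77.3%, 89 of 103 did. Of the 13 miRNAs with an unadjusted p under 0.05, 7 belonged to that highest bin, the 3 higher calls among them.

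The same slope was measured within each library, as its deviation from the mean of the NAc libraries in log2 units per 10 points of GC content. It was 0.047, 0.609, −0.117 and −0.112 in abstinence rats 1 to 4 and −0.050, −0.199, 0.099 and −0.363 in naive rats 1 to 4. Abstinence rat 2 was steepest upward and naive rat 4 steepest downward, while the remaining rats of the groups overlapped. Abstinence rat 2 and naive rat 3, whose slopes were the highest of the 8, had the lowest RIN, 8.1 each. Abstinence rat 4, with a RIN of 8.2, had a negative slope (−0.112). In the cortex of abstinence rat 2, where its RIN was the lowest of each region (7.9 in the IL and 7.4 in the PL), the slopes were 0.158 and 0.194, within the range of the other libraries there. The part of RNA quality in the slope was not tested. The RIN term of the model applies to the log2FC of each miRNA and not to these library slopes. Without abstinence rat 2 the rho over miRNAs was 0.29, and without naive rat 4 it was 0.32; with any other library left out it was 0.49 to 0.62. In the other regions of the same rats, the rho of the abstinence change with GC content was 0.27 in the IL and −0.23 in the PL. Whether the slope arose in the tissue or in library preparation was not tested.

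**Figure D3:**
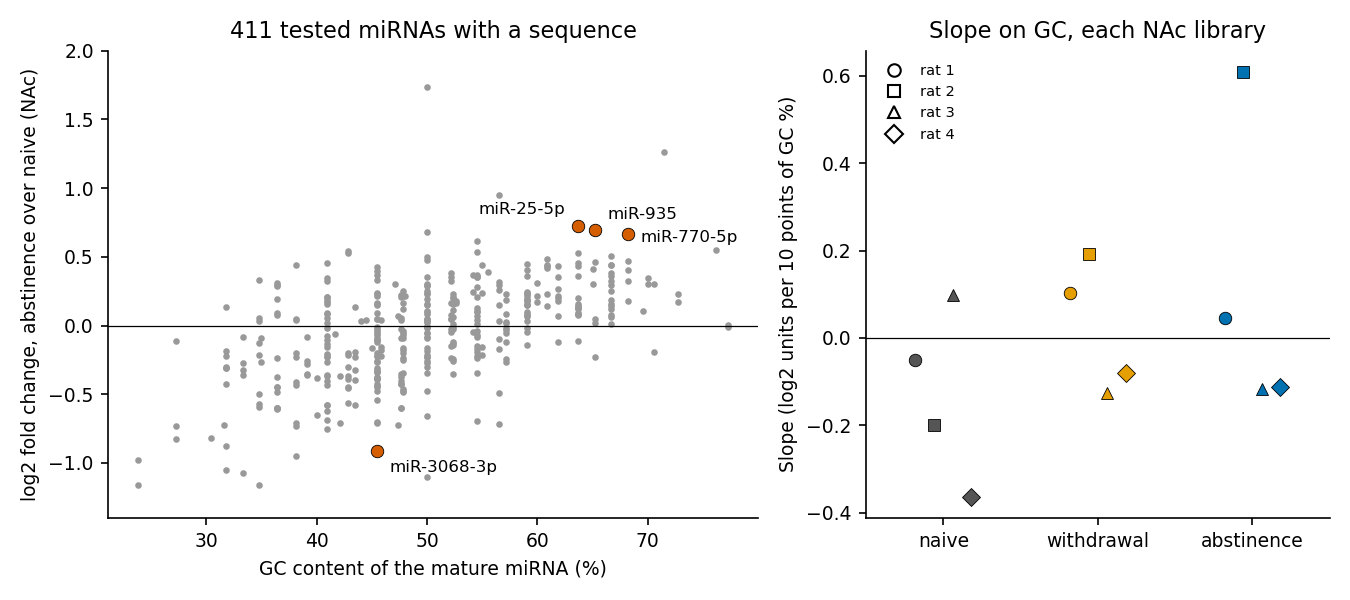
Left, log2 fold change of abstinence over naive in the NAc (vertical axis) against the GC content of the mature miRNA (horizontal axis, %), 1 point for each of 411 miRNAs, with calls in orange. Right, slope of each NAc library on GC content (log2 units per 10 points), 1 symbol for each rat, where abstinence rat 2 is at 0.609 and naive rat 4 at −0.363.

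The slope of each library on GC content was also taken out by an offset, an alternative added after the data were seen. The rho fell to 0.068 and the medians of the 4 bins lay between −0.05 and 0.02. Both follow from the way the offset was made, since it was fitted to GC content in these same libraries. 4 of 411 miRNAs then passed the thresholds (0.973%), of which rno-miR-3068-3p was also a call without the offset. With the offset, the log2FC of rno-miR-3068-3p was −0.84 (standard error 0.33). That of rno-miR-582-3p, whose gene lies within the phosphodiesterase gene Pde4d, was −0.63 (standard error 0.29). rno-let-7a-5p and rno-let-7f-1-3p were higher (0.67 and 0.68, standard error 0.31 for each), and none passed an adjusted p under 0.05 (adjusted p = 0.991 by edgeR for each of the 4; 13 had an unadjusted p under 0.05). rno-miR-935 kept its p with a smaller change, a log2FC of 0.45 (standard error 0.14), under the fold threshold. rno-miR-770-5p and rno-miR-25-5p had log2FC of 0.37 and 0.46 and passed neither threshold. rno-miR-125a-5p, whose GC content of 50% is near the mean, was little moved, with a log2FC of 0.52 against 0.50.

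The let-7 family holds miRNAs of differing GC content that share a single seed, and its sequences are given because they differ outside the seed in few bases. All 8 tested members that carry the seed are shown in the order of their GC content, from 31.8% to 45.5%.
rno-let-7f-5p: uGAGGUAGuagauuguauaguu
rno-miR-98-5p: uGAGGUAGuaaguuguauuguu
rno-let-7a-5p: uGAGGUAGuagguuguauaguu
rno-let-7c-5p: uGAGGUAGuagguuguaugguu
rno-let-7d-5p: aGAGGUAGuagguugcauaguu
rno-let-7e-5p: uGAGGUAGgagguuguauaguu
rno-let-7i-5p: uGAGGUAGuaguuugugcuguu
rno-let-7b-5p: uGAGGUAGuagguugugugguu
The let-7 miRNAs repress growth genes in differentiated cells. rno-let-7f-5p and rno-miR-98-5p, at a GC content of 31.8%, had log2FC of −0.22 and −0.31. The other 6 had log2FC of 0.08 to 0.34, with no steady rise with GC content among them. rno-let-7a-5p, at a GC content of 36.4%, was at 0.29 and rno-let-7b-5p, at 45.5%, at 0.33. At the same GC content of 40.9%, rno-let-7i-5p was at 0.08, rno-let-7d-5p at 0.17, rno-let-7c-5p at 0.32 and rno-let-7e-5p at 0.34. In abstinence rat 2, rno-let-7f-5p was at 12.83 against 13.82 to 14.81 in the other 7 rats, whereas rno-let-7a-5p was at 14.53, within the range of the others. Reads of such close relatives can be split between them by counting. Of 17 tested arms of the let-7 and miR-98 list, 11 were above 0, with a median log2FC of 0.17 against 0.02 over all 457 miRNAs, and none passed the thresholds. The median of the list was 0.05 without abstinence rat 2, 0.29 without naive rat 4 and 0.31 with the GC offset. Over all miRNAs it was −0.04, 0.07 and −0.01.

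The 10 most abundant miRNAs of naive NAc took 60.4% ± 2.46 of counts in naive rats and 60.0% ± 5.57 in abstinence rats (SD, n = 4 each). They were, in order, rno-miR-128-3p, rno-miR-26a-5p, rno-miR-9a-5p, rno-let-7i-5p, rno-miR-125a-5p, rno-miR-99a-5p, rno-miR-127-3p, rno-let-7f-5p, rno-miR-328a-3p and rno-miR-30d-5p. rno-miR-128-3p, which restrains the excitability of neurons, held 23.5% of counts and was at 17.60 ± 0.43 in abstinence and 17.61 ± 0.28 in naive rats (SD, n = 4 each). rno-miR-9a-5p, enriched in neural progenitors and neurons, was at 15.95, 14.30, 16.14 and 16.51 in abstinence rats and at 15.25, 15.81, 15.40 and 16.12 in naive rats. Abstinence rat 2 was thus the lowest and abstinence rat 4 the highest of the 8, and log2FC was 0.33 (standard error 0.41).

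Among groups of brain miRNAs, the 28 tested neuron-enriched ones had a median log2FC of −0.03, with 12 above 0 and no call. Over all 457 tested miRNAs the median was 0.02, with 236 above 0. The 6 activity-regulated miRNAs (the miR-132, miR-212 and miR-134 arms) had a median of −0.10 and no call, with rno-miR-132-3p at −0.02 (standard error 0.17) and rno-miR-212-5p at −0.22 (standard error 0.21). The 15 miRNAs linked to cocaine in earlier work had a median of −0.09 and no call, among them rno-miR-181a-5p (0.25, standard error 0.14), rno-let-7d-5p (0.17, standard error 0.15) and rno-miR-124-3p (0.23, standard error 0.21). No call was made among the 8 tested miR-181 arms (median 0.14), the 6 of miR-29 (0.07), the 11 of miR-23, miR-27 and miR-24 (−0.19) or the 7 of miR-15 and miR-16 (−0.17). Nor was one made among the 6 of miR-34 and miR-449 (−0.06), the 8 of miR-17 and miR-106 (−0.01) or the 11 of miR-99, miR-100 and miR-125 (0.16). rno-miR-25-5p was the call in each of 2 overlapping lists, the 6 arms of the miR-106b to miR-25 cluster (median 0.04) and the 8 arms of the miR-25 and miR-92 family (median 0.28). Several of these medians moved with 1 library. Without abstinence rat 2 the median was −0.003 for miR-99, miR-100 and miR-125, −0.35 for miR-34 and miR-449, −0.08 for miR-17 and miR-106, −0.16 for the activity-regulated miRNAs and 0.13 for the miR-25 and miR-92 family. Without naive rat 4 it was 0.20 for miR-34 and miR-449, −0.03 for miR-15 and miR-16, −0.05 for miR-23, miR-27 and miR-24, and 0.01 for the cocaine-linked miRNAs. The miR-181 median stayed at 0.14 without either. The median of the neuron-enriched miRNAs was −0.07 without abstinence rat 2 and 0.05 without naive rat 4.

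The imprinted Dlk1-Dio3 locus carries a large miRNA cluster that is expressed from the maternal allele and abundant in brain. Of its 63 tested downstream miRNAs, 1 was higher and 2 were lower at an unadjusted p under 0.05, and none passed the fold threshold as well. Among these 63, 30 were above 0, and the median log2FC was −0.02. Over all 457 tested miRNAs, 9 were higher and 4 lower at that p (2.84%), and 236 were above 0. The 16 antisense to Rtl1 had a median of 0.02 and no call. The 4 near Meg3, with a mean GC content of 65.4%, were all above 0 (median 0.19), and their median was 0.07 without abstinence rat 2 and −0.05 with the GC offset. The median of the downstream miRNAs was −0.13 without abstinence rat 2 and near 0 without naive rat 4. The 6 miRNAs in introns of the serotonin receptor gene Htr2c had a median of −0.15 with 1 above 0 and no call.

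Markers of other cell types overlapped between the groups in their summed level. Beside the counts below, 236 of all 457 tested miRNAs were above 0 and their median log2FC was 0.02. The 6 vascular miRNAs, led by rno-miR-126a-3p of endothelium and rno-miR-143-3p of smooth muscle, summed to 11.29 to 13.31 log2 CPM in abstinence and 12.58 to 13.72 in naive rats, with 1 above 0 and a median log2FC of −0.26, and rno-miR-126b had no read. That median was −0.09 without abstinence rat 2 and −0.08 without naive rat 4. The 4 astrocyte and stress miRNAs summed to 10.93 to 11.71 in abstinence and 11.51 to 12.16 in naive rats, with none above 0 and a median of −0.36, rno-miR-21-5p at −0.60 (standard error 0.44). Without abstinence rat 2 the median was −0.23, and without naive rat 4 it was −0.16. The 2 oligodendrocyte miRNAs, the arms of miR-338, summed to 9.94 to 10.58 and 10.08 to 10.76, with a median log2FC of −0.24. rno-miR-219-2-3p, a more abundant oligodendrocyte miRNA, is spelled in the count table in a way that kept it out of the list, and was added after its values were seen. It was at 11.55, 11.73, 11.65 and 11.48 in abstinence rats and at 11.64, 11.29, 11.81 and 11.32 in naive rats. The groups overlapped (log2FC = 0.05, standard error 0.38). The 4 immune cell and microglial miRNAs summed to 9.35 to 9.64 and 9.25 to 9.72, with 2 above 0 and a median of −0.03. That sum was led by rno-miR-150-5p and rno-miR-146a-5p, the latter also in the astrocyte and stress list. rno-miR-142-5p, with 4 to 34 reads per library in abstinence and 11 to 89 in naive rats, had a log2FC of −1.07 (standard error 0.63, adjusted p = 0.887 by edgeR). No call was made in any of these lists, and their part in the calls above was not tested.

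The 8 choroid plexus and ependymal miRNAs summed to 10.96 to 11.35 log2 CPM in abstinence and 10.60 to 11.16 in naive rats (median log2FC −0.004). That median rested on single libraries, at −0.28 without abstinence rat 2 and 0.29 without naive rat 4. The 13 tested epithelial and sensory miRNAs had a median of 0.38 (0.20 without abstinence rat 2) with 10 above 0, at low levels that overlapped between groups (6.29 to 6.98 and 6.48 to 6.69), and 7 of the 23 in the table had no read in these 8 libraries. The 4 tested muscle miRNAs summed to 4.996 to 5.93 and 5.43 to 6.59 (median −0.26), with 7 of 14 in the table unread. The single tested erythroid miRNA, rno-miR-451-5p, was near the detection limit with 3 to 23 reads per library, and rno-miR-144-3p and rno-miR-451-3p had none. No call was made in these lists either.

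The same 8 rats gave IL and PL libraries, so the NAc change was set beside the cortical ones, and the gap between regions was tested as a contrast of the fit. In the IL 38 miRNAs passed the thresholds (8.32%) and in the PL 11 (2.41%). The 3 higher miRNAs had a log2FC above 0 in the IL too, and the difference between the regions was smaller than its standard error. For rno-miR-25-5p the IL log2FC was 1.01 against 0.72 in the NAc (difference −0.29, standard error 0.47). The difference was −0.08 (standard error 0.31) for rno-miR-935 and −0.10 (standard error 0.44) for rno-miR-770-5p. In the PL the log2FC were 0.11 for rno-miR-25-5p and rno-miR-935 and −0.05 for rno-miR-770-5p, and the NAc minus PL differences, 0.59 to 0.72 with standard errors of 0.31 to 0.46, did not pass. These standard errors leave room for differences as large as the changes themselves.

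For rno-miR-3068-3p the log2FC was −0.92 in the NAc, 0.14 in the IL (standard error 0.38) and −0.49 in the PL (standard error 0.38). The NAc and IL changes differed by −1.06 (standard error 0.51, unadjusted p = 0.0457 and adjusted p = 0.996 by edgeR), and the NAc and PL changes by −0.43 (standard error 0.51), which did not pass. Since each rat gave all regions, the NAc minus IL difference was also taken within rats. It was 1.49, −0.01, 1.56 and 0.40 log2 units in abstinence rats and 1.66, 2.61, 1.48 and 1.76 in naive rats, which overlapped (exact permutation p = 0.0857). With each rat as a fixed block in edgeR the difference was −1.10 (standard error 0.49, unadjusted p = 0.0338 and adjusted p = 0.996), so it passed the unadjusted thresholds in that model and not in the exact test. rno-miR-3068-3p was among the 19 miRNAs whose NAc and IL changes differed past the thresholds (4.16%), and 17 differed between the NAc and the PL (3.72%). None of these passed adjustment by edgeR (20 had an unadjusted p under 0.05 against the IL and 17 against the PL). rno-miR-344b-5p differed from both cortical regions at an unadjusted p under 0.05, with log2FC of 0.39 in the NAc, −0.25 in the IL and −0.24 in the PL (NAc minus IL 0.64, standard error 0.28; adjusted p = 0.996 by edgeR). Within rats its NAc minus IL values of the groups did not overlap, nor did its NAc minus PL values (exact permutation p = 0.0286 for each). This miRNA was named because its NAc values did not overlap. Both differences hold those NAc values, so they are not independent of that choice or of each other. The NAc change of rno-miR-346 exceeded the PL change by 0.64 (standard error 0.24, edgeR adjusted p = 0.865), whereas rno-miR-210-3p was close to equal in the NAc, IL and PL (0.46, 0.36 and 0.43).

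**Figure D4:**
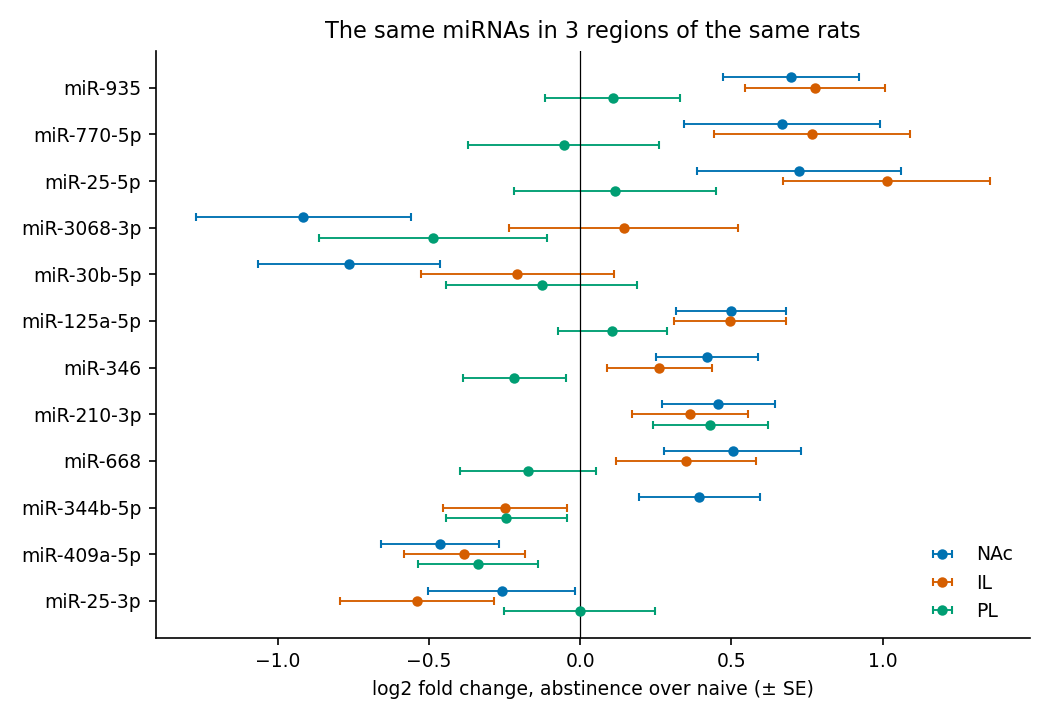
The log2 fold change of abstinence over naive (horizontal axis, bars ± standard error) in the NAc, IL and PL of the same rats for the 5 calls and 7 other miRNAs. The 3 higher calls lie to the right of 0 in the NAc and the IL and near 0 in the PL (0.11, 0.11 and −0.05), and miR-344b-5p lies to the right in the NAc alone.

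The NAc changes at acute withdrawal share the naive libraries with the abstinence changes, so the values are set side by side without a test of likeness. rno-miR-935 was at 5.68 ± 0.33 in withdrawal, between naive (5.23 ± 0.24) and abstinence (5.91 ± 0.41; SD, n = 4 each). The withdrawal log2FC were 0.46 for rno-miR-935, 0.41 for rno-miR-770-5p, 0.59 for rno-miR-25-5p, −0.66 for rno-miR-3068-3p and −0.61 for rno-miR-30b-5p, beside abstinence changes of 0.70, 0.67, 0.72, −0.92 and −0.76. The 5 were chosen by the abstinence change, so the order of these sizes is a description. None of the 5 passed the thresholds at withdrawal, where 13 miRNAs did (2.84%), and the direct change from withdrawal to abstinence, in which 4 miRNAs passed (0.875%), was −0.26 to 0.26 for them with standard errors of 0.23 to 0.36. rno-miR-210-3p was near naive at withdrawal (0.09, standard error 0.19).

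limma-voom with the same groups and RIN gave a different balance, 11 miRNAs past the thresholds (2.41%), of which rno-miR-935 was higher and 10 were lower, again with none at an adjusted p under 0.05 and 19 at an unadjusted p under 0.05. 3 of the 11 were also calls by edgeR, namely rno-miR-935, rno-miR-3068-3p and rno-miR-30b-5p. The added ones were rno-miR-1-3p, rno-miR-135a-5p, rno-miR-3068-5p, rno-miR-379-3p, rno-miR-380-5p, rno-miR-382-3p, rno-miR-496-3p and rno-miR-582-3p. rno-miR-379-3p, rno-miR-380-5p, rno-miR-382-3p and rno-miR-496-3p lie in the Dlk1-Dio3 cluster. rno-miR-135a-5p was at 3.76, 2.20, 5.17 and 4.83 in abstinence rats and at 5.16, 5.32, 4.10 and 6.24 in naive rats. Abstinence rat 2 was lowest for each of these 8 miRNAs, and their groups overlapped. The sequence below is that of the added miRNA with the lowest GC content, 30.4%.
rno-miR-135a-5p: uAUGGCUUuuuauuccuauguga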

How the data were processed

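Small RNA was sequenced from the NAc, IL and PL of 12 rats (36 libraries) by the authors, who trimmed, aligned and quantified the reads in the CAP-miRseq workflow. The deposited values are raw read counts of mature miRNAs, with no normalization. The paper names rn6 as the genome and the submitters' processing notes name mRatBN7.2. How reads shared by close relatives were assigned is not given in the sources used here, and which libraries shared a sequencing pool was not tested. Groups follow the labels. Total counts of 9509360 to 12757547 per NAc library keep counting error small for all but the rarest miRNAs.

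Counts were filtered with filterByExpr (minimum count 10, minimum total count 15; 457 of 723 miRNAs, 99.998% of counts, 95 had no count), scaled by TMM and fitted with edgeR 4.0.16 (R 4.3.3), with 1 mean for each of the 9 combinations of group and region and RIN as a covariate. limma-voom (limma 3.58.1), with and without the rat as a random block (consensus correlation 0.117), DESeq2 1.42.0 and, for differences between regions, edgeR with each rat as a fixed block (added after the data were seen) were alternatives, as were other filters, scalings and sample sets and each NAc library left out. The study tested with limma-voom; edgeR is the main test here because the values are counts. The edgeR standard errors were taken as the absolute log2FC divided by the square root of the F statistic. They can be unreliable for very small changes. Log2 CPM used a prior count of 0.5. Rats were matched across regions by the study's sample table, 1 library by elimination. Exact permutation tests were two-sided over 70 splits. The GC offset was a loess fit (span 0.75) for each library. No 2 libraries were identical. Scripts were tested on simulated data.

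The miRNAs named are those past the thresholds by edgeR or limma-voom or in at least 4 of the leave-out fits, in each direction the 5 lowest p and, at a mean of at least 5 log2 CPM, the 5 largest changes, the 5 the study lists, the 10 most abundant, other arms and seed relatives of those past the thresholds, leading members of each list, and list members with an unadjusted p under 0.05. Those with separate groups were named after their values were seen. The comparison, the miRNA lists and the thresholds were chosen with earlier results of these data known. Sequences and gene overlaps came from RefSeq tables (GRCr8) by name, and 411 of the 457 tested miRNAs had a sequence.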

Additional observations from a re-analysis of the deposited data

Results flagged for a closer look

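In 4 of 70 groups of 4 rats examined, the gap between 1 rat and its nearest neighbor took up more of the group's range than Dixon's critical value allows, and chance alone gives about 1 such group in 20. In abstinence rats the gap was 0.922 of the range for rno-miR-496-3p and 0.845 for rno-miR-582-3p, both with abstinence rat 2 lowest, and 0.860 for rno-miR-344b-5p, with abstinence rat 2 highest. In naive rats it was 0.955 for rno-miR-668, with naive rat 4 lowest at 7.36 against 7.68 to 7.70. Those are the rats at the ends of the first principal component of the NAc.

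The abstinence change differed between regions at an unadjusted p under 0.05 by edgeR for 4 of the 32 named miRNAs compared. Each of the 32 was compared in 2 differences, and only rno-miR-344b-5p differed in both. Over all 457 tested miRNAs, 4.16% of the NAc minus IL and 3.72% of the NAc minus PL differences passed the fold and p thresholds. These 4 miRNAs were named by their NAc change, which enters each difference. The NAc minus IL difference was −1.06 log2 units for rno-miR-3068-3p and 0.64 for rno-miR-344b-5p. The NAc minus PL difference was 0.64 for rno-miR-346, 0.68 for rno-miR-668 and 0.64 for rno-miR-344b-5p. None passed an adjusted p under 0.05.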

How the results depend on the processing

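The 5 calls in the NAc became 11 by limma-voom, 10 with the rat as a block, 10 without RIN, 15 with no filter and 0 to 30 with 1 NAc library left out (0 without abstinence rat 2, 10 without abstinence rat 3, 30 without abstinence rat 4, 9 and 13 without naive rats 1 and 3, 3 without naive rat 4). The share of higher calls was 3 of 5 by edgeR, 1 of 11 by limma-voom and 9 of 15 with no filter. DESeq2 gave 6, RLE scaling 5, a minimum count of 50 gave 4, the 12 NAc libraries gave 7 and the 8 alone gave 5. No setting gave an adjusted p under 0.05. The 19 NAc minus IL differences became 11 by limma-voom and 10 to 26 with 1 library left out (10 without naive rat 4), and the 17 NAc minus PL differences became 11 with RLE scaling and 6 to 35 with 1 left out. The cause of these shifts was not tested. The change of rno-miR-30b-3p, near 0, turned to 0.049 with no filter and was −0.12 to 0.081 with 1 library left out. Of all other values for single miRNAs, 556 kept their direction and side of the thresholds, 46 passed anew and 27 no longer passed. For abstinence against naive within the NAc no paired analysis was possible because the labels give no replicate numbers and the groups are different animals. The differences between regions come from the same rats: with each rat as a fixed block, added after the data were seen, they numbered 16 against the IL and 11 against the PL. rno-miR-668 then lost its NAc minus PL difference (0.60, standard error 0.32, unadjusted p = 0.0696 and adjusted p = 0.796 by edgeR). With 4 rats a group, changes under the fold threshold were often within the spread, and miRNAs of few reads, such as rno-miR-25-5p, carry counting error as well.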
